A study of Triticum aestivum with 12 samples.

Results

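Of the 107892 genes counted in the grain and flag leaf of bread wheat, 4 are described here, chosen because the starch gene table of the study lists them under the names of a branching or a debranching enzyme. They are TraesCS2A02G310300 (GBE1/BEIIb, chromosome 2A), TraesCS7A02G549100 (GBE1, chromosome 7A), TraesCS7B02G472500 (GBE1, chromosome 7B) and TraesCS5A02G248700 (ISA3, chromosome 5A). The study reports each gene of that table as differing between the tested line and the wild type in grain or leaf of these libraries. Neither the direction of its genes nor the separation of the lines is thus independent evidence. The tested line was E82, a transgenic line obtained from the wild type BW208 and selfed for several generations, which carries hairpin constructs against the ω-, α- and γ-gliadin genes. The hairpins are transcribed from promoters that are specific for the endosperm, and both lines were grown in a greenhouse. The 12 libraries were 3 each of E82 grain, WT grain, E82 flag leaf and WT flag leaf, from plants sampled 20 days after anthesis (DAA). E82 is a single transformed line, so that the effect of the hairpins cannot be told apart from other differences between E82 and BW208.

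Starch consists of amylose, which is nearly linear, and amylopectin, which is branched. Starch branching enzymes cut a glucan chain and rejoin the cut end as a side chain, and thereby set how branched amylopectin is. In cereals, BEIIb is the isoform known mainly from the endosperm. Isoamylases are debranching enzymes that remove side chains, and in Arabidopsis ISA3 is known for its part in the breakdown of leaf starch. Bread wheat is hexaploid and holds related copies of most genes on its A, B and D subgenomes.

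Total counts per library ranged from 31716495 to 44826804 in E82 grain and from 47733020 to 50629732 in WT grain. They ranged from 55529286 to 59921014 in E82 leaf and from 27172814 to 41002622 in WT leaf. The 3 WT leaf libraries stood apart, with 31558 to 45655 genes having a count, against 55916 to 59840 in E82 leaf. Their biological coefficient of variation, the relative spread between libraries beyond counting error, was 1.71, against 0.386 in E82 leaf. The study also reports that a smaller part of the reads was assigned to transcripts in each WT leaf library than in any other library. In leaf these differences cannot be told apart from that between the lines. Grain markers (2 Glo3 globulin and 3 TaPBF genes) summed to 2950 to 3124 TPM in E82 grain and 3385 to 4936 TPM in WT grain, and to at most 12.2 TPM in any leaf library. The 2 Glo3 genes carried the sum in grain, with means of 2052 and 961 TPM in E82 grain and 2980 and 1226 TPM in WT grain. Leaf markers (2 GLK1 and 2 TaSWEET13 genes) summed to at most 1.09 TPM in any grain library.

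In the grain, the RNA of the 3 branching enzyme genes was lower in every E82 library than in any WT library, and ISA3 was not. The difference was called for GBE1/BEIIb alone. TPM, the transcript abundance scaled by transcript length and library, is used below for levels of different genes. CPM, the count scaled by the library total and the TMM factor within the tissue, is used for the comparison of the lines.

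The 2A gene GBE1/BEIIb was at 0.567, 0.209 and 0.114 TPM in E82 grain, against 22.8, 6.91 and 1.96 TPM in WT grain. The groups did not overlap, and within each line the libraries differed several-fold. It averaged 1.15 ± 0.915 CPM in E82 grain and 56.4 ± 67.4 CPM in WT grain (SD, n = 3 each), from 15 to 106 counts per E82 library and 407 to 5386 counts per WT library. The gene fell in E82 grain, with a log2 fold change (log2FC) of -5.59 ± 1.02 (SE) and an adjusted p of 0.0296 (edgeR quasi-likelihood test, Benjamini-Hochberg adjustment over 64706 genes). Called means an adjusted p under 0.05 throughout. Of the 4 genes, 1 was called lower and 0 higher in E82 grain, where 1.31% of all genes tested were called lower and 0.0927% higher. Without WT grain replicate 1, which held most of the counts, the gene was still called with a log2FC of -3.97 (adjusted p = 0.0251). The call was lost without E82 grain replicate 1, 2 or 3 (adjusted p = 0.125, 0.216 and 0.186) and without WT grain replicate 2 (adjusted p = 0.0508).

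The 7A gene GBE1 was at 4.56, 5.08 and 4.60 TPM in E82 grain, against 69.7, 8.81 and 7.70 TPM in WT grain. The E82 libraries lay close together and below the WT, while WT grain replicate 1 stood far above the other WT libraries. It averaged 13.8 ± 0.944 CPM in E82 grain and 119 ± 162 CPM in WT grain (SD, n = 3 each). Its log2FC was -3.11 ± 0.87 (SE), which was not called (adjusted p = 0.166, edgeR quasi-likelihood test). Without WT grain replicate 1 the log2FC was -0.93, and without WT grain replicate 3 it was -3.59 and called (adjusted p = 0.0477).

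The 7B gene GBE1 was at 1.51, 2.10 and 2.01 TPM in E82 grain, against 21.6, 3.24 and 2.62 TPM in WT grain. Its libraries fell in the same arrangement as those of the 7A gene, at a lower level. It averaged 5.31 ± 1.02 CPM in E82 grain and 36.6 ± 48.4 CPM in WT grain (SD, n = 3 each). Its log2FC of -2.78 ± 0.84 (SE) was not called (adjusted p = 0.212, edgeR quasi-likelihood test) and was -0.73 without WT grain replicate 1. With edgeR's likelihood ratio and exact tests, which called 3.33 and 2.84% of all genes lower, the 2A, 7A and 7B genes were all called lower, while DESeq2 gave no p for the 7A and 7B genes.

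The debranching gene ISA3 was at 2.98, 2.15 and 2.65 TPM in E82 grain, against 1.53, 1.82 and 2.24 TPM in WT grain. The groups overlapped. It averaged 8.65 ± 1.35 CPM in E82 grain and 7.23 ± 0.974 CPM in WT grain (SD, n = 3 each), with a log2FC of 0.26 ± 0.29 (SE) and an adjusted p of 0.895 (edgeR quasi-likelihood test). ISA3 was the member with the least spread between the WT grain libraries. Of the 4 genes, 3 were lower in every E82 library than in every WT library, against 9.28% of all genes tested in grain. The median log2FC of the 4 genes was -2.95, beside 0.01 over all genes tested.

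**Figure D1:**
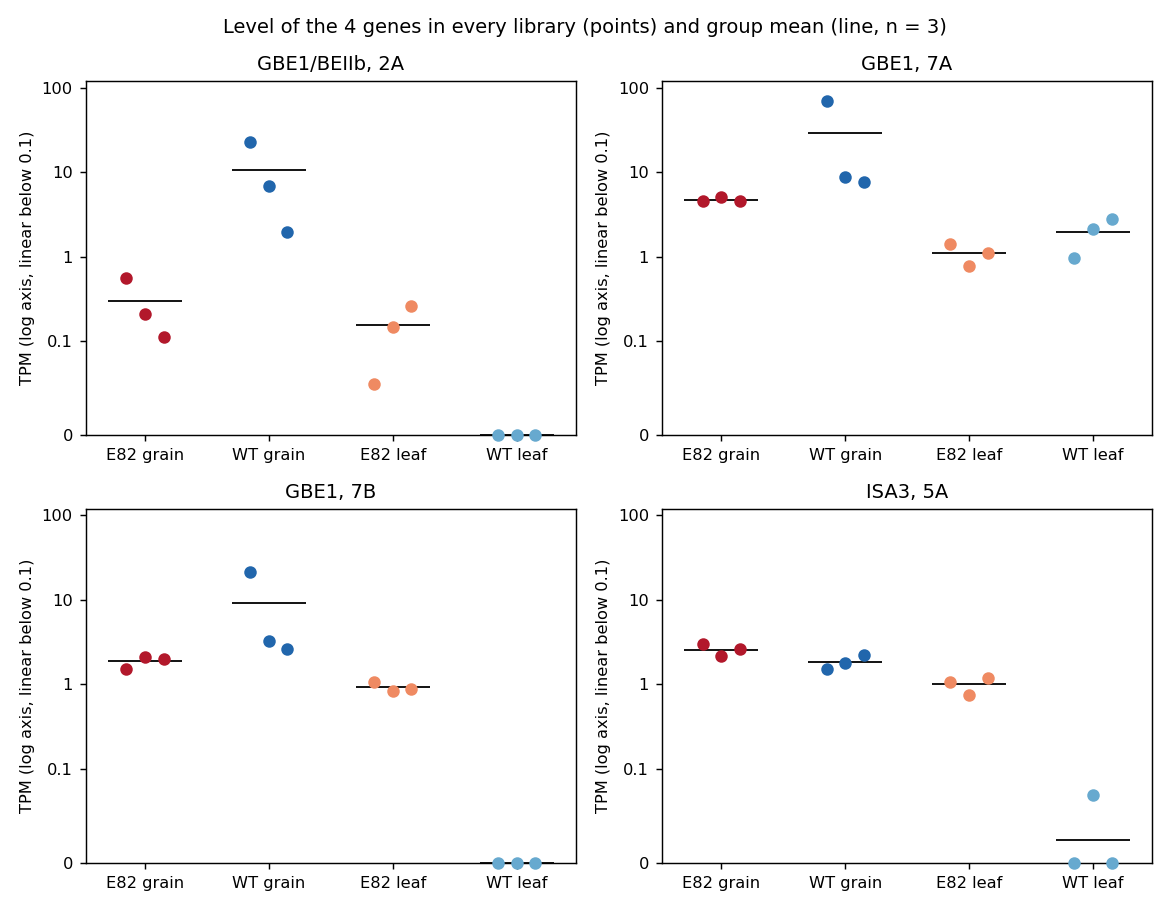
TPM of the 4 genes (vertical axis, logarithmic above 0.1 and linear below) in each library of E82 grain, WT grain, E82 leaf and WT leaf, with points for the 3 libraries and a line for their mean. The 3 branching genes lie lower in E82 grain than in WT grain, ISA3 overlaps between the lines in grain, and the 2A and 7B genes are at 0 in all 3 WT leaf libraries.

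**Figure D2:**
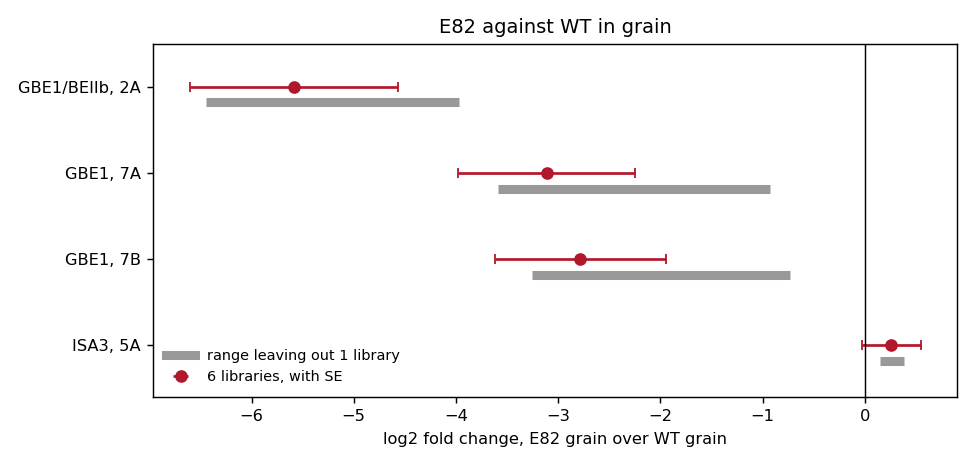
Log2 fold change of E82 grain over WT grain (horizontal axis) for the 4 genes, with the standard error of the fit to 6 libraries as whiskers and the range over fits that leave out 1 library as grey bars. The bars of the 3 branching genes stay below 0, and reach -0.93 for the 7A gene and -0.73 for the 7B gene.

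WT grain replicate 1 held 7.47, 12.0 and 10.7 times the mean CPM of WT grain replicates 2 and 3 for the 2A, 7A and 7B genes, and 1.07 times for ISA3. The median of this ratio was 0.995 over the 50585 genes averaging 1 CPM or more in WT grain. The ratio was high in the neighbouring lists also, with a median of 5.86 over 3 phosphorylase genes and 5.72 over the 16 other starch genes of the study's table. Over the 5 grain markers it ranged from 0.565 to 13.0 with a median of 5.26. All 5 markers had a count in the grain of both lines and a log2FC below 0, and 1 of them was called lower. This was the TaPBF gene TraesCS5A02G155900, which encodes a transcription factor of the endosperm, at 0, 0.364 and 0.195 TPM in E82 grain, against 19.4, 7.37 and 3.30 TPM in WT grain. The part of a different make-up of the seed samples in these results was not tested, and fewer cells of a type cannot be told apart from less RNA per cell.

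The levels of the 4 genes relative to each other also differed between the lines. In all 3 E82 grain libraries the order of TPM was the 7A gene, ISA3, the 7B gene and the 2A gene. In WT grain the 7A gene was also first, but the 2A gene was second in replicates 1 and 2 and last in replicate 3. The neighbours ISA3 and 7B lay close together in E82 grain, with means of 2.59 ± 0.419 and 1.87 ± 0.318 TPM (SD, n = 3), and did not change places in any library, whereas in WT grain the 2A and 7B genes averaged 10.6 ± 10.9 and 9.15 ± 10.8 TPM (SD, n = 3), well within their spread.

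The RNA of 9 branching genes was set side by side in the grain, the 3 above and 6 others, which carry the term for this activity in a published grain co-expression module. The study looked into modules with many genes that differed in E82 grain, so the 6 were not chosen independently of these libraries. Any branching genes outside these 9 are left out of the sum, so the shares are of these 9 alone. The summed TPM of the 9 genes was 8.04 to 9.23 in E82 grain and 15.1 to 136 in WT grain. The 2A gene made up 6.86, 2.27 and 1.42% of this sum in E82 grain, against 16.7, 25.5 and 13.0% in WT grain, without overlap (difference -14.9 percentage points, exact two-sided permutation test, p = 0.1, the smallest p that 3 against 3 allows). The 7A gene made up 55.1, 55.0 and 57.2% in E82 grain and 51.2, 32.5 and 51.0% in WT grain (exact permutation p = 0.1). The 7B gene made up 18.3, 22.8 and 25.0% in E82 grain and 15.8, 12.0 and 17.4% in WT grain (exact permutation p = 0.1). These 3 groups of shares did not overlap between the lines, and no share of 3 against 3 libraries can pass 0.05. Shares of 1 sum are bound to move against each other.

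**Figure D3:**
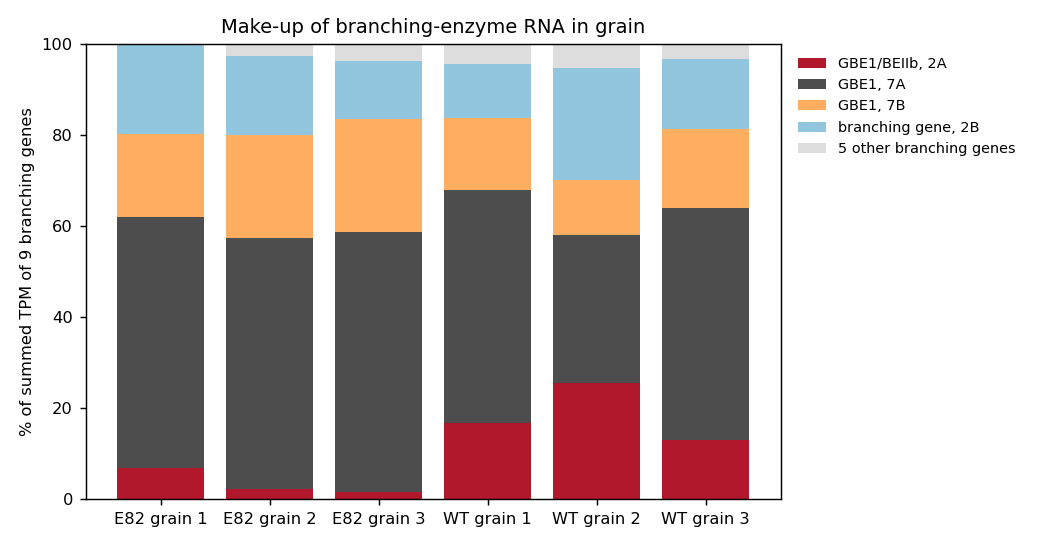
Percent of the summed TPM of 9 branching genes (vertical axis) taken by each gene in the 3 E82 grain and 3 WT grain libraries. The 2A gene takes 1.42 to 6.86% in E82 grain and 13.0 to 25.5% in WT grain.

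Of the 6 other branching genes, the 2B gene TraesCS2B02G327300 was the most abundant in grain, at 1.63, 1.59 and 1.03 TPM in E82 grain, against 16.1, 6.67 and 2.31 TPM in WT grain. It did not overlap between the lines, and its log2FC of -2.96 ± 0.68 (SE) missed the threshold (adjusted p = 0.0787, edgeR quasi-likelihood test). The next, TraesCS7A02G549300, was at 0, 0.248 and 0.293 TPM in E82 grain, against 1.85, 0.860 and 0.394 TPM in WT grain. The other 4 had no count in E82 grain. TraesCS7A02G549200 was at 1.06, 0.570 and 0 TPM in WT grain, and TraesCS7D02G535500 at 1.37, 0 and 0.108 TPM. TraesCS7B02G472400 and TraesCS7D02G535600 were at 1.01 and 0.761 TPM in WT grain replicate 1 and at 0 in WT grain replicates 2 and 3. Against a floor of 3 counts per E82 library, TraesCS7D02G535500 was at least 22.8-fold lower in E82 grain, and at least 1.82-fold lower without WT grain replicate 1. In leaf the 5 genes other than the 2B gene had no count in any library. Of the 6, 0 were called in grain, although 5 were lower with an unadjusted p under 0.05 and 6 had a log2FC below 0. Of all 64706 genes tested in grain, 4488 were lower with an unadjusted p under 0.05. DESeq2, which called 3.38% of all genes lower in grain, and the likelihood ratio test, which called 3.33%, called 3 of the 6 lower (the 2B gene, TraesCS7A02G549200 and TraesCS7D02G535500). The exact test, which called 2.84%, called the 2B gene alone.

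Among 7 other debranching genes (isoamylase, pullulanase and glycogen debranching activities), 0 were called in grain. All 7 had a log2FC below 0, 6 with an unadjusted p under 0.05 (beside 4488 lower of all 64706 genes), and their median log2FC was -1.33. DESeq2 called 1 of them lower, TraesCS7A02G251400, beside 3.38% of all genes, and the likelihood ratio and exact tests called 0, beside 3.33 and 2.84% of all genes. The pullulanase gene TraesCS7D02G133100 had the lowest of them, -1.62 ± 0.65 (SE, adjusted p = 0.417, edgeR quasi-likelihood test), at 1.77, 1.51 and 0.751 TPM in E82 grain, against 5.66, 0.971 and 2.78 TPM in WT grain. Of 3 phosphorylase genes, whose enzymes shorten or lengthen glucan chains at their ends, 0 were called in grain and their median log2FC was -1.87. The lowest of them was TraesCS5A02G395200, at 2.46, 0.727 and 1.09 TPM in E82 grain, against 10.6, 3.56 and 1.68 TPM in WT grain (log2FC -2.31 ± 0.74 SE, adjusted p = 0.258, edgeR quasi-likelihood test). Of the 16 other starch genes of the study's table, which was not drawn up independently of these libraries, 3 were called lower and 0 higher, with a median log2FC of -2.88. By the same tests and beside the same shares of all genes, DESeq2 called 2 of the phosphorylase genes lower, the likelihood ratio test 1 and the exact test 0. These medians stand beside 0.01 over all genes tested. The debranching, phosphorylase and other starch genes had more CPM in WT grain replicate 1 than the mean of WT grain replicates 2 and 3, except TraesCS4B02G091100 (SPS) at 0.778 times.

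In the flag leaf the picture was another. The 2A and 7B genes had counts in every E82 library and none in any WT library, ISA3 had 129 to 201 counts in E82 and 0 to 9 in the WT, and the 7A gene was counted in both lines. None of the 4 was called by the edgeR quasi-likelihood test. The same test called 0.163% of all 53874 genes tested in either direction and 0.0204% higher. The study, by contrast, reports the 2A and 7B genes and ISA3 as higher in E82 leaf. Of the 4, 3 were higher with an unadjusted p under 0.05, beside 7670 higher and 2728 lower of all genes tested in leaf.

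The 2A gene was at 0.0551, 0.147 and 0.260 TPM in E82 leaf (12, 30 and 51 counts), against 0 in all 3 WT leaf libraries. Against a floor of 3 counts per library, averaged over the WT libraries as 0.0798 CPM, it was at least 7.57-fold higher in E82 leaf, and at least 4.95-fold without E82 leaf replicate 3. Its adjusted p was 0.0864 (edgeR quasi-likelihood test). Floors allow for counting error alone, because reads that are copies of 1 molecule do not count it anew.

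The 7B gene was at 1.07, 0.844 and 0.890 TPM in E82 leaf (166, 123 and 129 counts), against 0 in all 3 WT leaf libraries. It was at least 33.7-fold higher in E82 leaf on the same floor, and at least 30.5-fold without E82 leaf replicate 1, with an adjusted p of 0.0864 (edgeR quasi-likelihood test). ISA3 was at 1.08, 0.744 and 1.19 TPM in E82 leaf, against 0, 0.0728 and 0 TPM in WT leaf. Every E82 library was above every WT library. ISA3 averaged 3.43 ± 0.892 CPM in E82 leaf and 0.0683 ± 0.118 CPM in WT leaf (SD, n = 3 each), with a log2FC of 5.57 ± 2.23 (SE) and an adjusted p of 0.231 (edgeR quasi-likelihood test). The 7A gene was at 1.42, 0.782 and 1.10 TPM in E82 leaf, against 0.961, 2.11 and 2.83 TPM in WT leaf, which overlapped (log2FC -0.49 ± 0.87 SE, adjusted p = 0.907, edgeR quasi-likelihood test).

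Of the 4 genes, 3 were thus higher in every E82 leaf library than in every WT leaf library, against 23.8% of all genes tested in leaf. As in grain, this is not independent of how the 4 genes were chosen. An absent count was common in WT leaf. Of 7551 genes with a mean of 2 to 4 CPM in E82 leaf, the range of the 7B gene and ISA3, 14.4, 26.5 and 55.1% had no count in WT leaf replicates 1, 2 and 3, and 4.56% had none in all 3. Of 5130 genes with 0.5 to 1 CPM in E82 leaf, the range of the 2A gene, 34.0% had none in all 3. Leaf markers summed to 533 to 1343 TPM in E82 leaf and to 6254 to 9509 TPM in WT leaf. The 2 TaSWEET13 genes carried this sum, with means of 405 ± 194 and 467 ± 217 TPM in E82 leaf and 3246 ± 531 and 4082 ± 1406 TPM in WT leaf (SD, n = 3). The 2 GLK1 genes lay the other way, with means of 20.5 ± 5.59 and 38.6 ± 10.5 TPM in E82 leaf and 13.0 ± 4.17 and 19.9 ± 6.63 TPM in WT leaf (SD, n = 3). None of the 4 markers was called between the leaf groups, although each had an unadjusted p under 0.05. The study reports TaSWEET13 as lower in E82 leaf, both in these libraries and by qPCR. The part of these differences between the leaf libraries, and of the smaller share of assigned reads in WT leaf, in the absence of the 2A, 7B and ISA3 counts was not tested.

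The calls in leaf moved with the test. DESeq2 called the 7B gene and ISA3 higher in E82 leaf, where it called 6.45% of all genes higher. The 2A and 7B genes were called higher by the likelihood ratio and exact tests, which called 10.1 and 9.22% of all genes higher, and also without WT leaf replicate 1 (adjusted p = 0.0495 and 0.0426). Without that library 8782 genes were called in leaf in all, against 88 with it.

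Related genes on different subgenomes can share reads, and pseudoalignment divides such reads between them. Whether the 7A and 7B genes, or the 2A and 2B genes, are copies of 1 gene was not checked, since their sequences were not used here. Each pair was also added up, a step chosen after the values had been seen, and the sums did not separate the lines in leaf. The 7A and 7B genes together were at 7.54, 4.45 and 5.83 CPM in E82 leaf, against 2.26, 5.08 and 6.39 CPM in WT leaf. These sums overlapped, with a ratio of the means of 1.30 (E82 over WT, exact two-sided permutation p = 0.5). All of the WT leaf counts of the pair were assigned to the 7A gene, against 57.5, 48.5 and 55.7% of the pair's CPM in E82 leaf. In grain the 7A gene held 70.7 to 75.4% of the pair's CPM in E82 and 74.3 to 76.8% in the WT. The 2A gene together with the 2B gene was at 1.74, 4.06 and 3.08 CPM in E82 leaf, against 1.24, 1.12 and 8.25 CPM in WT leaf, which also overlapped (exact permutation p = 1). The 2A gene held 13.3, 13.8 and 33.1% of that pair in E82 leaf and none in WT leaf. How reads were divided within these pairs was not tested.

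**Figure D4:**
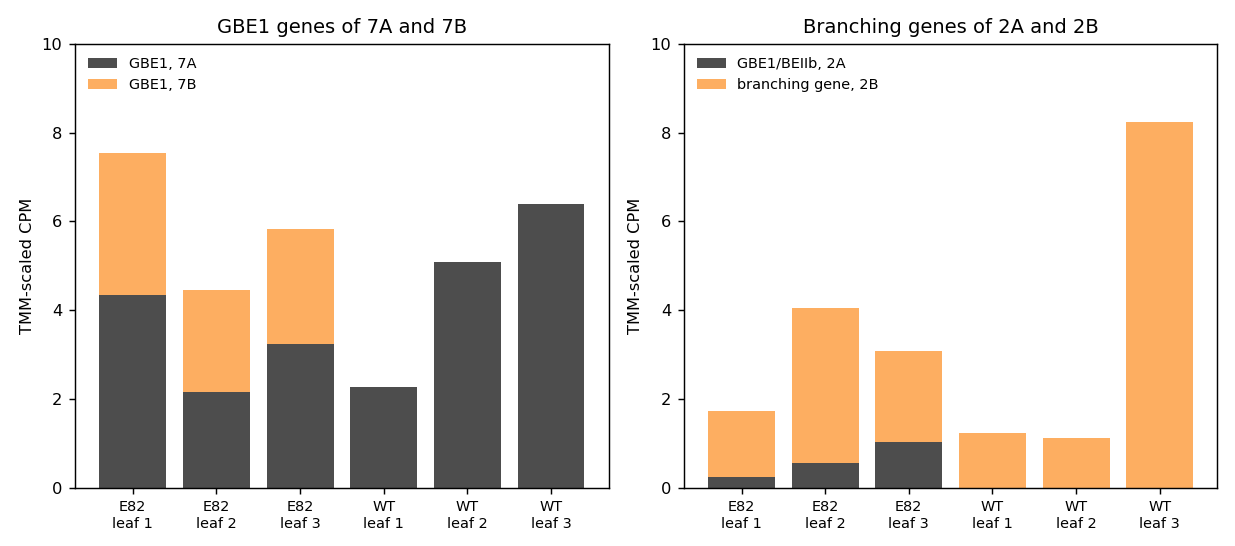
TMM-scaled CPM (vertical axis) of the 7A and 7B GBE1 genes (left) and of the 2A and 2B branching genes (right), stacked, in the 3 E82 leaf and 3 WT leaf libraries. The stacked 7A and 7B genes reach 4.45 to 7.54 CPM in E82 leaf and 2.26 to 6.39 CPM in WT leaf, where the 7B part is absent.

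In grain the sums separated the lines. The 7A and 7B genes together averaged 19.1 ± 1.96 CPM in E82 grain and 156 ± 211 CPM in WT grain (SD, n = 3 each), without overlap (exact permutation p = 0.1, the smallest possible). The 2A and 2B genes together averaged 6.45 ± 1.92 CPM in E82 grain and 97.9 ± 110 CPM in WT grain (SD, n = 3 each), also without overlap (exact permutation p = 0.1).

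The other lists were tested in leaf as well. Of 1 other branching, 6 other debranching and 3 phosphorylase genes that passed the filter on low counts, 0 were called. Of these, 2 were higher in E82 leaf with an unadjusted p under 0.05, beside 7670 of all 53874 genes. DESeq2, the likelihood ratio test and the exact test called the same 2 higher, beside 6.45, 10.1 and 9.22% of all genes. Of the 16 other starch genes, 10 passed the filter and 0 were called, while 3 were higher and 4 lower with an unadjusted p under 0.05. Over all genes tested in leaf, 7670 were higher and 2728 lower with an unadjusted p under 0.05. Every E82 leaf library was above every WT leaf library for 3 of the 10 starch genes, against 23.8% of all genes tested in leaf. Every E82 leaf library was below for 4 of them, a direction whose share over all genes was not taken. The median log2FC of the 10 was -1.26, beside 0.21 over all genes tested in leaf. The 2 were the isoamylase gene TraesCS7B02G139700, at 11.1, 16.1 and 10.1 TPM in E82 leaf, against 5.30, 6.52 and 8.34 TPM in WT leaf (log2FC 1.22 ± 0.26 SE), and the phosphorylase gene TraesCS5D02G404500, at 6.22, 6.16 and 6.06 TPM in E82 leaf, against 3.26, 3.69 and 2.84 TPM in WT leaf (log2FC 1.22 ± 0.27 SE). Both had an adjusted p of 0.0864 (edgeR quasi-likelihood test) and no overlap between the lines. The 2B branching gene was at 0.377, 0.961 and 0.563 TPM in E82 leaf, against 0.402, 0.362 and 2.85 TPM in WT leaf, where WT leaf replicate 3 alone was high. Its log2FC was -0.59, and 0.996 without that library (adjusted p = 0.926 and 0.548, edgeR quasi-likelihood test). The phosphorylase gene TraesCS5B02G400000 had a log2FC of -0.25 ± 0.75 (SE, adjusted p = 0.954).

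Grain was compared with leaf within each line, on CPM scaled over the 12 libraries. In E82 none of the 4 genes was called, where 16.3% of all 70086 genes tested were called higher in grain. Of the 4, 1 was higher in grain with an unadjusted p under 0.05, beside 16015 of all genes. DESeq2 called ISA3 (adjusted p = 0.0421), where it called 22.9% of all genes higher. The fit to the 6 E82 libraries alone called the 7A gene and ISA3 (adjusted p = 0.00245 and 0.0371), with 27.2% of all genes called higher. Scaling by library totals called the 7A gene (adjusted p = 0.0432), with 20.0% called higher, and so did the fit without WT grain replicate 1 (adjusted p = 0.0134). The 7A gene averaged 13.0 ± 1.06 CPM in E82 grain and 3.46 ± 1.18 CPM in E82 leaf (SD, n = 3 each), with a log2FC of 1.90 ± 0.83 (SE) and an adjusted p of 0.112 (edgeR quasi-likelihood test). ISA3 averaged 8.14 ± 1.20 CPM in E82 grain and 3.65 ± 0.941 CPM in E82 leaf, and the 7B gene 5.01 ± 1.02 CPM in E82 grain and 2.87 ± 0.515 CPM in E82 leaf (SD, n = 3 each). For these 3 genes every E82 grain library was above every E82 leaf library. The 2A gene, at 1.08 ± 0.842 CPM in E82 grain and 0.640 ± 0.415 CPM in E82 leaf (SD, n = 3 each), overlapped.

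In the WT all 4 genes were called higher in grain than in leaf, where 23.3% of all genes were (edgeR quasi-likelihood test, adjusted p = 0.000374, 0.00281, 0.000195 and 0.00218 for the 2A, 7A, 7B and ISA3 genes). The call of the 7A gene was lost with the replicate block within each line (adjusted p = 0.0641) and that of ISA3 with the 6 WT libraries fitted alone (adjusted p = 0.0509). Against the floor of 3 counts, the 2A gene was at least 613-fold higher in WT grain and the 7B gene at least 396-fold. Without WT grain replicate 1 they were at least 202-fold and 97.3-fold higher. Both bounds take the absent WT leaf counts as they stand. All WT leaf counts of the pairs described above were assigned to the 7A and 2B genes, and how reads were divided was not tested. The 7A gene averaged 109 ± 147 CPM in WT grain and 4.84 ± 2.20 CPM in WT leaf (SD, n = 3 each), a ratio of 22.5, or 5.03 without WT grain replicate 1. ISA3 averaged 6.78 ± 0.831 CPM in WT grain and 0.0720 ± 0.125 CPM in WT leaf (SD, n = 3 each), with counts in WT leaf replicate 2 alone. Of the related genes, the 2B branching gene (log2FC 3.36 ± 0.94 SE), TraesCS7A02G549300, the debranching genes TraesCS7A02G251400 (log2FC 2.79 ± 0.51 SE) and TraesCS7D02G133100 and the phosphorylase gene TraesCS5D02G404500 (log2FC 1.61 ± 0.56 SE) were also called higher in WT grain. In E82 the related genes called were TraesCS7D02G133100, higher in grain, and TraesCS7B02G139700, lower in grain. Of all 70086 genes tested, 11446 were called higher and 7927 lower in E82 grain, and 16320 higher and 8034 lower in WT grain. Of the 16 other starch genes, 9 were called higher and 3 lower in E82 grain, and 12 higher and 1 lower in WT grain.

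The difference between the lines in grain was tested against that in leaf as the interaction of line and tissue. Of the 4 genes, 2 were called, the 2A gene (adjusted p = 0.0139) and the 7B gene (adjusted p = 0.0103), both with the E82 over WT ratio lower in grain than in leaf, where 2.57% of all genes were called in that direction (edgeR quasi-likelihood test over 12 libraries). Since both genes were at 0 in WT leaf, their fitted interaction depends on the prior count and is no measure of size. ISA3 and the 7A gene were not called (adjusted p = 0.0994 and 0.315). ISA3 was called by DESeq2 (adjusted p = 4.19e-07) and the likelihood ratio test (adjusted p = 0.000478), which called 6.48 and 7.16% of all genes in this direction. It was also called without WT leaf replicate 1, 2 or 3 (adjusted p = 0.0389, 0.00305 and 0.0454). With the replicate number as a block neither call held (adjusted p = 0.0552 for the 2A gene and 0.0519 for the 7B gene), and the summed pairs described above overlapped between the lines in leaf. Without E82 grain replicate 2 the 2A gene was not called (adjusted p = 0.0558).

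The annotation gives 3 transcripts for the 2A gene, 5 for the 7A gene, 2 for the 7B gene and 2 for ISA3. Transcript 2 (3181 bases) of the 2A gene carried 91.6, 92.4 and 90.9% of its TPM in E82 grain, against 0, 0 and 91.4% in WT grain. Transcript 3, which is 6 bases longer, carried 99.3 and 100% of it in WT grain replicates 1 and 2, the libraries with the highest levels, and 7.58 to 9.14% in E82 grain. WT grain replicate 3 thus had the make-up of the E82 libraries, and in E82 leaf transcript 2 carried 89.0 to 93.8%. The mean difference for transcript 2 was 61.2 percentage points (exact two-sided permutation test of E82 against WT grain, p = 0.2).

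Transcript 1 of the 7A gene carried 100, 82.6 and 26.0% of its TPM in E82 grain and 37.0, 17.5 and 0% in WT grain, which overlapped (exact permutation p = 0.2). In leaf the whole level lay on transcript 1 in 5 libraries and on transcript 4 in E82 leaf replicate 3. The 7B gene lay wholly or nearly so on transcript 1 in 4 libraries and on transcript 2 in the other 5 with a count, with no arrangement by line or tissue. ISA3 was on transcript 2 for at least 98.6% of its TPM in every library where it was counted. In the 7B gene the assignment thus passed nearly as a whole from one transcript to the other between replicates of 1 group. Transcripts that differ by a few bases share most of their reads, and how these were divided was not tested.

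**Figure D5:**
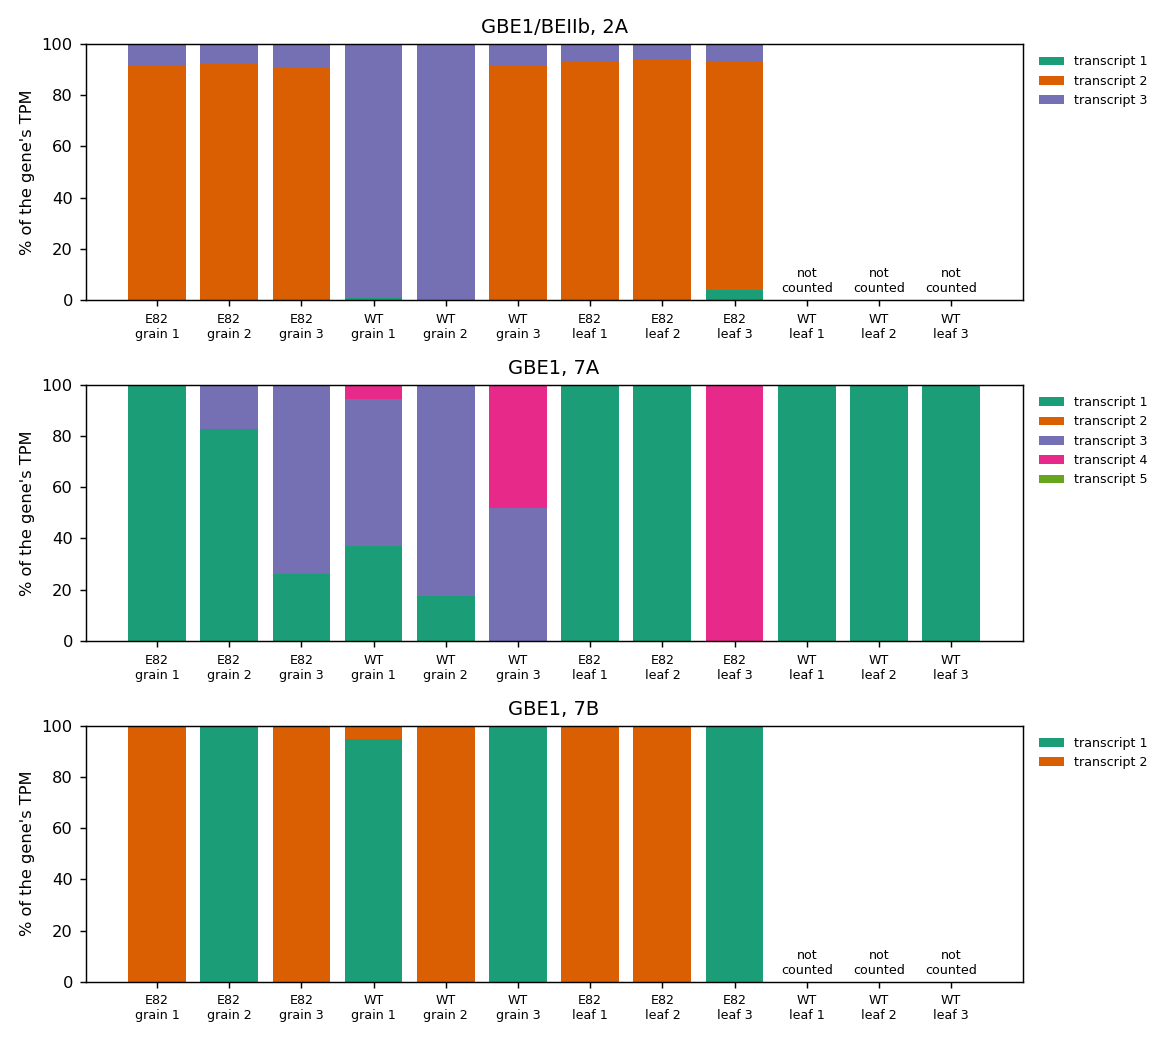
Percent of the TPM of each gene (vertical axis) assigned to its transcripts in the 12 libraries, for the 2A gene (top), the 7A gene (middle) and the 7B gene (bottom), with libraries without a count marked as not counted. The 2A gene lies on transcript 3 in WT grain replicates 1 and 2 and on transcript 2 elsewhere, while the 7A and 7B genes change transcript between replicates of one group.

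The genes most like each member were sought as the highest Pearson correlation of log2(CPM + 1) over the 12 libraries among 51727 genes averaging 1 CPM or more. The correlations describe these libraries, which share groups and depth, and the files pair none of the IDs with a name. The 2A gene was closest to TraesCS1D02G000582, TraesCS1B02G278900 and TraesCS2D02G532800 (r = 0.988, 0.987 and 0.987), and the 7A gene to TraesCS7A02G036800, TraesCS4D02G274600 and TraesCS4A02G451811 (r = 0.976, 0.974 and 0.972). The 7B gene was closest to TraesCS3D02G212300, TraesCS4B02G151500 and TraesCS4A02G094000 (r = 0.974, 0.959 and 0.952), and ISA3 to TraesCS4A02G033300, TraesCS2B02G319500 and TraesCS3B02G534900 (r = 0.987, 0.986 and 0.986). Among the starch genes, the 7A gene was close to the isoamylase gene TraesCS7A02G251400 (r = 0.958, rank 39) and the granule-bound starch synthase gene TraesCS7A02G070100 (r = 0.952, rank 59). The 2A gene was close to the OsBT1-1 gene TraesCS6B02G210000 (r = 0.976, rank 69), named after a rice plastid transporter. The members resembled each other less, with r between 0.870 and 0.894 among the 3 branching genes and between 0.510 and 0.782 for ISA3 with them.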

How the data were processed

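RNA was extracted from seeds and flag leaves, rRNA was removed, and libraries were sequenced as paired ends by the authors. Per the labels and the study's methods, reads were trimmed with Trimmomatic 0.36 and pseudoaligned with kallisto 0.44.0 to the IWGSC RefSeq transcripts. The authors deposited estimated counts per gene, not normalized, and TPM by transcript and library, here added up per gene. Listed TPM sum to 757995 to 867760 per library. Such counting divides reads shared by related copies and transcripts.

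Estimated counts were rounded to whole numbers. Each tissue (6 libraries), and the 12 libraries for interaction and tissue contrasts, was fitted with edgeR 4.0.16 in R 4.3.3 (TMM, quasi-likelihood test, Benjamini-Hochberg adjustment, CPM sum above 1, threshold 0.05). SE was taken as the size of log2FC over the root of F. DESeq2 1.42.0, limma 3.58.1 with log2 of TPM plus 1 or 0.1, other edgeR tests, scalings and filters, thinned counts, a replicate block and leaving out each library were alternatives. Pairs of branching genes were summed after the values had been seen. Replicates are separate plants of a line. The fits were tested on simulated data with the same fixed spread for all genes, smaller than that between the libraries of any group. How they perform at the spread of these libraries was not tested. Summaries and figures came from scipy 1.17.1, matplotlib 3.10.9, numpy 2.4.6 and pandas 2.3.3 under Python 3.11.15.

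Members and lists were chosen with earlier results of these data known. Named were the 4 genes, from the related lists each gene called and the largest rise and fall in each tissue, the other branching genes in grain, and the 3 genes most like each member. Gene names are those of the study's tables, since no ID of the 4 genes matched the RefSeq gene table at hand, and coordinates and sequences were not used here.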

Additional observations from a re-analysis of the deposited data

Results flagged for a closer look

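For 3 genes of the members and the branching, debranching and phosphorylase lists, the difference between E82 and WT was itself different in grain and in leaf. The interaction of line and tissue was tested with the edgeR quasi-likelihood test over 12 libraries, which called 2.57% of all genes in the same direction. Outside these lists it also called 1 of the 16 other starch genes lower, the SSI gene TraesCS7B02G018600 (-2.76 ± 0.63 SE, adjusted p = 0.0395). The leaf marker TraesCS7A02G339800 (GLK1) was called in this direction too (adjusted p = 0.00597). The fitted value was -13.43 on the log2 scale for the 2A gene TraesCS2A02G310300 (adjusted p = 0.0139) and -12.75 for the 7B gene TraesCS7B02G472500 (adjusted p = 0.0103), both of which depend on the prior count because WT leaf had no count. The isoamylase gene TraesCS7B02G139700 had -2.55 ± 0.60 (SE, adjusted p = 0.0472), with counts in every library. It was at 3.42, 1.64 and 2.44 TPM in E82 grain, against 7.39, 4.18 and 3.41 TPM in WT grain, and at 11.1, 16.1 and 10.1 TPM in E82 leaf, against 5.30, 6.52 and 8.34 TPM in WT leaf. In E82 it was lower in grain than in leaf (log2FC -2.51, adjusted p = 0.0013), whereas in the WT its log2FC was 0.04 (adjusted p = 0.970). Leaving out 1 library gave between -2.82 and -1.91, with the call held in 3 of 12 cases. The call was lost in 5 of 9 other settings, with an adjusted p of up to 0.438, reached with the replicate block within each line.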

How the results depend on the processing

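The count of genes called depended on the test. In grain 905 genes were called (60 higher, 845 lower) by the quasi-likelihood test, and 2604 by DESeq2, 2516 by the likelihood ratio test, 2119 by the exact test, 1600 without a filter, 550 by limma on log2(TPM + 1) and 165 with 12 libraries sharing one spread. In leaf 88 were called (11 higher, 77 lower), and 5702, 6783 and 6129 by DESeq2, the likelihood ratio test and the exact test, 148 with library totals alone, 4005 with filterByExpr, 1270 and 4016 by limma with a pseudocount of 1 and 0.1, and 4367 with 12 libraries sharing one spread. For the interaction 2056 were called (253 higher, 1803 lower, against 520 higher and 1475 lower with library totals alone), and 6019 by DESeq2 and 6029 by the likelihood ratio test. Grain against leaf in E82 gave 19373 genes, and 32618 from the 6 libraries of the line. Leaving out 1 library gave 298 to 1669 genes in grain, 7 to 8782 in leaf and 549 to 6547 for the interaction.

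Of the 4 genes, 1 was called in grain, beside 1.31% of all genes called lower. The likelihood ratio and exact tests called 3, beside 3.33 and 2.84%. Without a filter 2 were called, beside 1463 lower of 74512 genes. The limma fits with a pseudocount of 1 and 0.1 called 0, beside 495 and 682 lower of 64706. With 12 libraries sharing one spread 0 were called, beside 148 lower of 70086. In leaf 0 were called, beside 0.0204% of all genes called higher. DESeq2, the likelihood ratio test and the exact test called 2 each, beside 6.45, 10.1 and 9.22%. With limma 2 were called at a pseudocount of 0.1 and 1 at a pseudocount of 1, beside 2939 and 700 higher of 53874 genes. With 12 libraries sharing one spread 3 were called, beside 3275 higher of 70086. Leaving out 1 library gave 0 to 2 genes in grain, 0 to 2 in leaf and 1 to 3 for the interaction. The 2 in grain came without WT grain replicate 3, beside 1489 lower of 63570 genes. The 2 in leaf came without WT leaf replicate 1, beside 7763 higher of 52152. The 3 for the interaction came without WT leaf replicate 1, 2 or 3, beside 5808 lower of 69591, 3124 of 69782 and 2339 of 69909. Directions held for the 4 genes between the lines in all fits that gave an adjusted p. Without E82 leaf replicate 3 the 2A gene missed the filter in leaf, and only 10 of the 12 other settings gave it an adjusted p there. For grain over leaf in E82 the 2A gene ranged from -0.082 (without E82 grain replicate 1) to 1.35. Of the other genes named, TraesCS2B02G327300 in leaf ranged from -1.01 to 0.996 (without WT leaf replicate 3) and was 0.011 with the replicate block. TraesCS5B02G400000 ranged from -1.64 to 0.28 in grain and from -1.69 to 0.52 in the interaction (both highest without WT grain replicate 1), and in leaf from -0.67 to 0.51 (without WT leaf replicate 3), with 0.051 under the block. TraesCS5A02G395200 ranged from -0.050 (without WT leaf replicate 1) to 0.58 in leaf. Library totals alone gave a median log2FC over all genes of 0.19 in grain and -0.06 in leaf, against 0.01 and 0.21 with TMM scaling.

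Same-numbered libraries correlated weakly in their deviations from the group means (r between -0.06 and 0.04 in 12 pairs, some of them of E82 with WT). Between grain and leaf, r was 0.0086, 0.0065 and 0.029 in E82 and 0.042, -0.0035 and 0.014 in the WT. The study took seeds and flag leaf from the replicate plants of each line, so a number may stand for a single plant. Weak correlations cannot exclude this, and the main fits left the numbers out. With the replicate block 46 genes were called in leaf and 211 for the interaction, and 0 of the 4 genes for the interaction. With the block within each line, added after seeing the data for the interaction, 10531 genes were called for grain against leaf in E82, 12491 in the WT and 0 for the interaction, with 0 of the 4 genes. Depth limits the leaf results of the 2A gene, which had 12 to 51 counts in E82 leaf.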
